A study of Mus musculus with 21 samples.

Results

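This account of mouse spinal cord RNA follows 9 genes: P2ry12, P2ry13, Tmem119, Cx3cr1, Siglech, Sall1, Gpr34, Csf1r and Fcrls. They are the genes most used to recognise homeostatic microglia, the resident macrophages of the central nervous system in their resting state. They were chosen by name, with earlier results of these data known. All 9 of the 9 symbols were found once among 25127 genes with values in each library. Microglia survive on signals through the growth factor receptor Csf1r, read neuronal fractalkine through Cx3cr1, and sense nucleotides and lysolipids through P2ry12, P2ry13 and Gpr34. The transcription factor Sall1, together with TGF-beta signalling, keeps the resting programme on. In injured, demyelinating or degenerating tissue microglia are known to multiply and to lower several of these genes, P2ry12 and Tmem119 first among them, while general macrophage genes persist, so that a bulk sample can hold more microglia and less of their resting-state transcripts.

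The 21 libraries came from whole spinal cords of C57BL/6 mice at P60 and P21, 1 mouse per library as far as the mouse IDs show. In the conditional knockouts (cKO, Cnp-Cre; Tardbp-fl/fl) Cre driven from Cnp, a gene of the oligodendrocyte lineage, acts on both floxed alleles of Tardbp, which encodes the RNA-binding protein TDP-43. In the heterozygous animals (cHET, Cnp-Cre; Tardbp-fl/+) Cre acts on 1 floxed allele. The controls (Tardbp-fl/fl) carry both floxed alleles and no Cre. At P60 each genotype had 3 libraries, from males aged 61 to 64 days (cKO), males aged 60 to 65 days (cHET) and females aged 74 days (control). At P21 each had 4 libraries, from 2 females and 2 males aged 21 days. The main contrast was therefore cKO against cHET, which share Cre and, at each age, sex, whereas sex and age cannot be told apart from genotype in the contrasts with P60 controls.

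Values are the authors' normalised scaled reads per base, called the level here. They were scaled within an age, and the library kit differed between ages (NEXTflex Rapid Directional at P60, TruSeq at P21), so levels are not compared between ages. Levels of different genes are not compared either, except in sums over a list and in ratios within a library. Read depth is unknown. The values of a library summed, in units of 1e6, to 12.5 to 13.8 at P60 and 26.9 to 29.2 at P21. Mitochondrial genes took 14.6% to 17.9% of that sum in P60 cKO cords. The share was 11.4% to 16.2% in P60 cHET cords, highest in cHET 3, and 10.2% to 16.1% in P60 control cords, highest in control 1. Tardbp averaged 803 ± 25.1 in cKO, 921 ± 13.3 in cHET and 883 ± 54.5 in control cords at P60, and 1751 ± 99.5 in cKO, 2141 ± 108 in cHET and 2263 ± 115 in control cords at P21 (SD). In cKO cords it was lower than in cHET cords at both ages (adjusted p = 0.040 at P60 and 0.0025 at P21) and lower than in controls at P21 (-0.37 ± 0.06, adjusted p = 0.00033), while the difference from controls at P60 did not pass (-0.14 ± 0.06, adjusted p = 0.14). Cnp averaged 11366 in cKO, 8830 in cHET and 15210 in control cords at P60. The labelled tissue was read from 4 neuronal, 4 oligodendrocyte and 4 astrocyte markers, all 12 of which were measured.

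All 9 genes are protein-coding and lie on chromosomes 3 (P2ry12, P2ry13 and Fcrls), 5 (Tmem119), 7 (Siglech), 8 (Sall1), 9 (Cx3cr1), 18 (Csf1r) and X (Gpr34) of GRCm38. RefSeq promoter sequence of GRCm38.p6 was available for 6 of the 9 genes, and Tmem119, Gpr34 and Csf1r had no entry. The windows below are shown because P2ry12 and P2ry13 are neighbours on the minus strand that moved in opposite directions, and because Siglech was the gene whose change turned round with age. The first pair of windows are 30 bases around the hexamer AGGAAG, the core of sites bound by ETS factors such as the macrophage regulator PU.1, printed in capitals.
P2ry12 (chr3:59263020-59263049, minus strand): aagctaacaagaAGGAAGttccccagtgac
P2ry13 (chr3:59210912-59210941, minus strand): caaggggaaatgAGGAAGgaaaagcagtat
The hexamer began 52 bases before the RefSeq start of P2ry12, which differs from its GENCODE start, and 47 bases before that of P2ry13. The window upstream of P2ry13 follows whole, with the hexamer again in capitals, and that of Siglech follows up to the annotated start of the gene, which leaves 244 of the 250 bases searched.
P2ry13 (chr3:59210883-59211132, minus strand): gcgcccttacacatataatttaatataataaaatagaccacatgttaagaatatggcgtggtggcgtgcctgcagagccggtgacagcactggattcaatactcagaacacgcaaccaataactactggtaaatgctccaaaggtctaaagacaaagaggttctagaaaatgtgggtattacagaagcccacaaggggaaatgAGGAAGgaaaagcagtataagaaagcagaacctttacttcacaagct
Siglech (chr7:55767934-55768177, plus strand): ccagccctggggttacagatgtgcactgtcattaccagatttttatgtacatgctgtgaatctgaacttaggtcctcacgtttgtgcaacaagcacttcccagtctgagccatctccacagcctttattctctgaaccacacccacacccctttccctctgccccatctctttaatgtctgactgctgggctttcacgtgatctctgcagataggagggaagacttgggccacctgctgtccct
On both strands of the 250 bases before each start 4 motifs were searched: AGGAAG, GAGGAAGT (a longer PU.1 form that contains AGGAAG), the joint PU.1 and IRF element (EICE) and TGCTGA (the core bound by MAF factors). Of 32851 mouse promoters of that length 29.5% held AGGAAG, 2.44% GAGGAAGT, 2.3% the joint element and 16.1% TGCTGA. Fcrls held AGGAAG 4 times and TGCTGA 1 time, and 1 of the Sall1 starts held AGGAAG 1 time. GAGGAAGT and the joint element matched in none of the 6 genes with an entry. No match to any of the 4 was found in the windows of Cx3cr1 or Siglech. The hexamer was thus present before a RefSeq start of genes that fell in cKO cords at P60 (P2ry12 and Sall1) and of genes that rose (P2ry13 and Fcrls). The matches of Sall1 and Fcrls lie inside the gene as annotated by GENCODE, and those of P2ry12 and P2ry13 lie upstream of it.

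At P60 the 9 genes divided into a group of 5 that rose in cKO cords and a group of 4 that fell. Fcrls, Gpr34, Cx3cr1, Csf1r and P2ry13 were higher in cKO than in cHET cords, and Tmem119, P2ry12, Siglech and Sall1 were lower, all with an adjusted p under 0.05 (limma-trend on log2(value + 0.5), Benjamini-Hochberg over all tested genes). In this contrast 25.0% of 16833 tested genes passed, 13.4% as higher and 11.5% as lower. The cKO and cHET values of all 9 genes did not overlap, which was the case for 39.5% of the tested genes. The median change of the 9 genes was 0.82 on the log2 scale, against 0.0033 over all tested genes. In bulk cord, fewer cells of a type and less RNA per cell cannot be told apart.

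Tmem119, which encodes a transmembrane protein found in the brain and cord almost only on microglia, showed the largest decrease of the 9. Its level at P60 was 50.3, 63.6 and 38.5 in cKO cords, 158, 194 and 160.5 in cHET cords and 162, 175 and 159 in control cords. Every cKO cord lay far below every cord of the other genotypes, which overlapped each other. The change was -1.76 ± 0.17 against cHET (log2 ± SE, adjusted p = 2.2e-05), a level 3.39-fold lower in cKO, and -1.72 ± 0.17 against control (adjusted p = 2.6e-05).

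P2ry12 encodes the ADP receptor that steers microglial processes towards damaged cells. Its level at P60 was 248, 386 and 238 in cKO cords, 645, 552 and 708 in cHET cords and 662, 707 and 632 in control cords. The highest cKO value, that of cKO 2, stayed below the lowest cHET value. P2ry12 fell by 1.15 ± 0.16 on the log2 scale against cHET (adjusted p = 0.00038), or 2.23-fold, and by 1.23 ± 0.16 against control (adjusted p = 0.00023).

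Siglech, a sialic acid-binding lectin that signals through the adaptor Tyrobp, had levels of 129.5, 142 and 111 in cKO cords, 262, 232 and 205 in cHET cords and 276, 405 and 157 in control cords at P60. The controls spread widely, and the lowest of them came close to the highest cKO value without reaching it. The change was -0.87 ± 0.27 against cHET (adjusted p = 0.037) and -1.03 ± 0.27 against control (adjusted p = 0.016). The call against cHET ended when cHET 1 (adjusted p = 0.115), cHET 2 (0.0852), cKO 1 (0.0814), cKO 2 (0.0603) or cKO 3 (0.106) was left out, and that against control when cKO 3 was left out (0.0536).

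Sall1, the zinc-finger regulator of microglial identity, changed little in size but evenly. Its level at P60 was 801, 783 and 784 in cKO cords, 1073, 1019 and 1067 in cHET cords and 1056, 1006 and 939.6 in control cords. The 3 cKO cords were nearly equal and all lay below the rest. The change was -0.42 ± 0.06 against cHET (adjusted p = 0.00046), a level 1.33-fold lower, and -0.34 ± 0.06 against control (adjusted p = 0.0018).

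Among the genes that rose, Fcrls, an Fc receptor-like scavenger receptor of mouse microglia, rose most. Its level at P60 was 1506, 1673 and 1118 in cKO cords, 158, 189 and 179 in cHET cords and 152, 165 and 228 in control cords. The lowest cKO cord, cKO 3, was several-fold above any other genotype. The change was 3.01 ± 0.17 against cHET (adjusted p = 4.6e-07), an 8.05-fold higher level, and 2.98 ± 0.17 against control (adjusted p = 4.3e-07).

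Csf1r, the receptor of the growth factors CSF1 and IL-34, had levels of 5929, 5635 and 4802 in cKO cords, 1979, 2070.4 and 2079 in cHET cords and 1868, 2245 and 1749 in control cords at P60. Again cKO 3 was the lowest of its group and still more than any cHET or control cord. Csf1r rose by 1.41 ± 0.10 against cHET (adjusted p = 1.9e-06), or 2.66-fold, and by 1.48 ± 0.10 against control (adjusted p = 1.2e-06). Annotated Csf1r overlaps Hmgxb3 on the other strand, and whether the authors' quantification used strand is not given in the sources used here.

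Cx3cr1, the fractalkine receptor, rose by a similar factor. Its level at P60 was 3036, 2769 and 2634 in cKO cords, 913, 882 and 921 in cHET cords and 840.0, 941 and 819 in control cords. The groups were tight and far apart, with a change of 1.63 ± 0.07 against cHET (adjusted p = 9.3e-08), or 3.10-fold, and of 1.70 ± 0.07 against control (adjusted p = 6.2e-08). The annotated span of Cx3cr1 overlaps 9 other genes on either strand.

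Gpr34, a receptor for lysophosphatidylserine, had levels of 394, 357 and 332 in cKO cords, 79.3, 73.7 and 132 in cHET cords and 134, 77.2 and 121 in control cords at P60. The 3 cKO cords stood well above a scattered background, at 1.97 ± 0.24 against cHET (adjusted p = 0.000125) and 1.74 ± 0.24 against control (adjusted p = 0.00029). Gpr34 lies within Cask on the opposite strand, and Cask itself was not called (-0.22 ± 0.11 against cHET at P60, adjusted p = 0.18).

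P2ry13, another ADP receptor and a close relative of P2ry12, went the other way from it. Its level at P60 was 244, 254 and 235 in cKO cords, 139, 128 and 148 in cHET cords and 143, 121 and 134 in control cords. P2ry13 rose by 0.82 ± 0.10 against cHET (adjusted p = 0.00013), or 1.77-fold, and by 0.88 ± 0.10 against control (adjusted p = 7.2e-05).

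**Figure D1:**
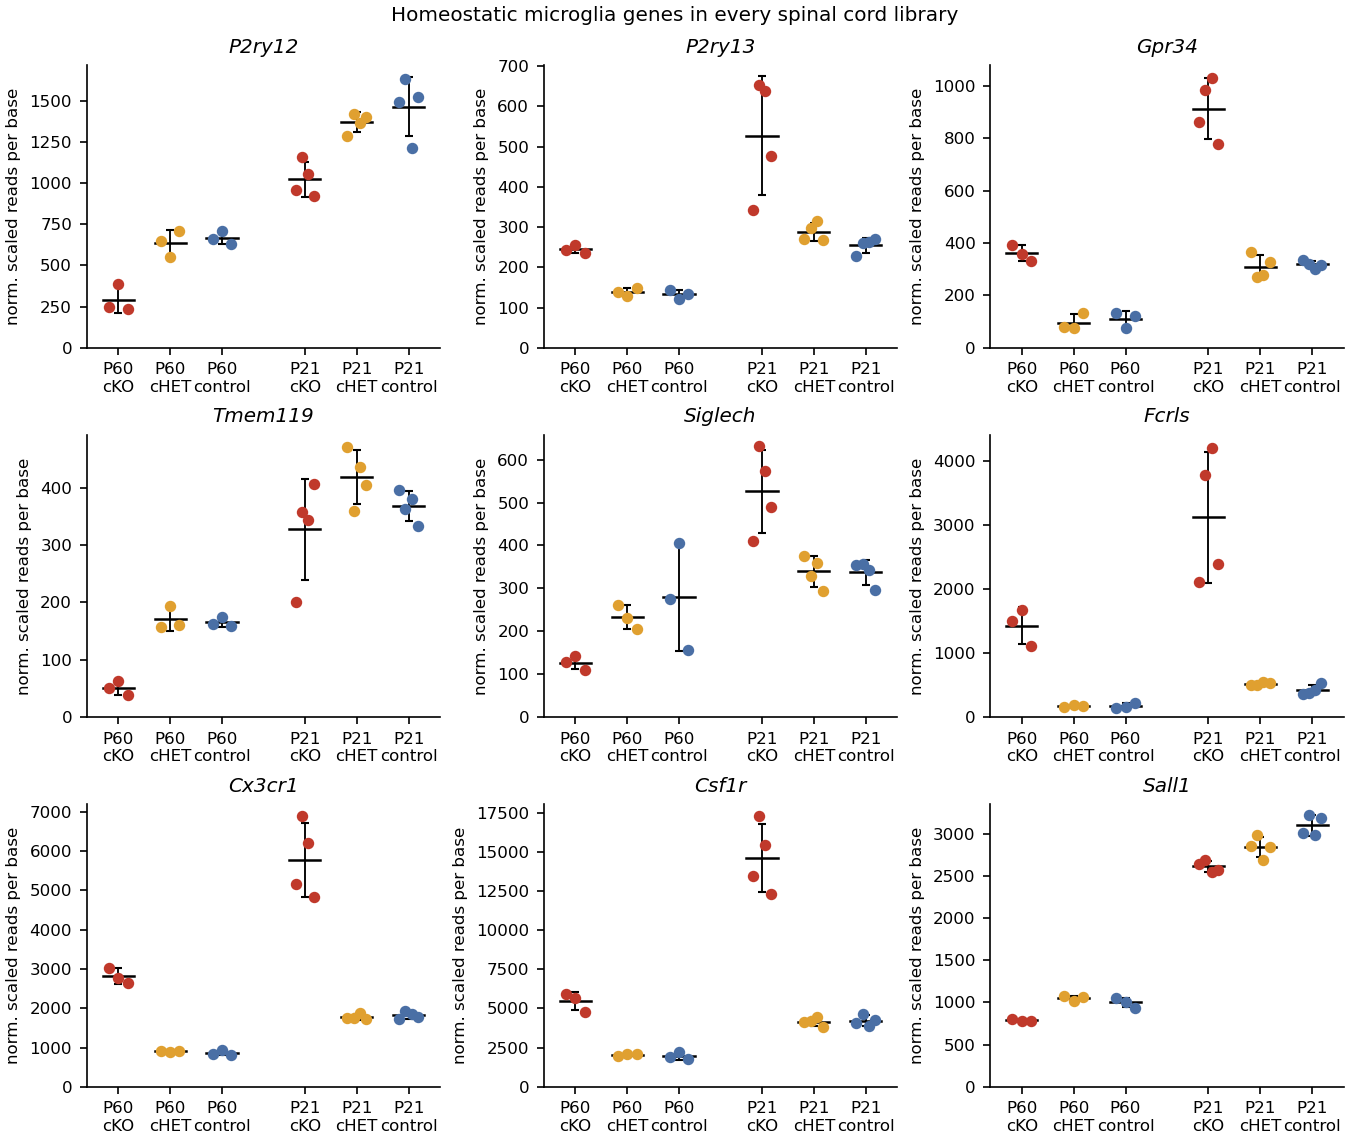
Level (normalised scaled reads per base) of the 9 genes in each of the 21 libraries, by age and genotype; points are libraries, horizontal lines the means and bars the SD (n = 3 per group at P60, 4 at P21). At P60 the cKO points of Tmem119 (38.5 to 63.6), P2ry12, Siglech and Sall1 lie below, and those of the other 5 genes above, all cHET and control points.

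Against control at P60 the same split was counted, with 5 genes higher and 4 lower, none overlapping (25.9% of tested genes were called, 14.5% higher and 11.4% lower, and 40.8% did not overlap). Both contrasts share the cKO libraries, so they are not independent of each other. The authors' deposited tables put all 54 results of the 9 genes, over 6 contrasts, on the same side of the threshold and in the same direction as the limma fits. Their log2 changes come from the same values and equal those of limma, so the direction could not differ. Only the call could. In the authors' deposited tables a q under 0.05 was given to 25.7% (cKO against cHET) and 26.9% (cKO against control) of genes at P60, and to 23.8% and 28.3% at P21.

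At P21 the picture was more one-sided. In cKO against cHET, 6 of the 9 genes rose, 1 fell and 2 did not pass (22.6% of 17989 tested genes were called, 12.6% higher and 9.97% lower), and the values of 7 of the 9 did not overlap, as for 22.6% of tested genes. The median change was 0.83, against -0.0076 over all tested genes. Against control 6 rose and 2 fell, none of these 8 overlapping (26.9% of tested genes were called, 14.6% higher and 12.3% lower, and 27.4% did not overlap).

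The 5 receptors that were higher at P60 were also higher at P21. Fcrls was 2109, 3780.2, 4212 and 2393 in cKO cords and 501, 502, 544 and 534 in cHET cords (2.52 ± 0.19, adjusted p = 2.1e-07). Csf1r was 13450.3, 17249.6, 15412 and 12313 in cKO cords and 4148, 4170.4, 4483 and 3812 in cHET cords (1.80 ± 0.09, adjusted p = 6.1e-09). In both genes cKO 2 and cKO 3 were the highest of their group, and no cKO cord came near the cHET range.

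Cx3cr1 was 5157, 6892, 6205 and 4838 in cKO cords and 1745, 1761, 1872 and 1729 in cHET cords (1.69 ± 0.09, adjusted p = 8.7e-09). Gpr34 was 862, 982, 1030.0 and 776 in cKO cords and 364, 271, 277 and 327 in cHET cords (1.56 ± 0.11, adjusted p = 1.1e-07). P2ry13 was 342, 653, 638 and 477 in cKO cords and 269, 297, 315 and 269 in cHET cords (0.83 ± 0.16, adjusted p = 0.0020). Of these only P2ry13 had a cKO cord, cKO 1, that lay close above the highest cHET value.

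The P21 controls gave the same order for these receptors. In control cords Fcrls was 364, 385, 421 and 538, Csf1r was 4054, 4655, 3903 and 4290.0, and Cx3cr1 was 1726, 1929.9, 1841 and 1789.9. Gpr34 was 335, 321, 302 and 315 and P2ry13 was 228, 259, 262 and 271. No control cord reached the lowest cKO value of any of the 5 genes. The change in cKO against control was 2.82 ± 0.19 for Fcrls (adjusted p = 6.2e-08), 1.78 ± 0.09 for Csf1r (6.8e-09), 1.65 ± 0.09 for Cx3cr1 (9.7e-09), 1.51 ± 0.11 for Gpr34 (1.6e-07) and 1.0 ± 0.16 for P2ry13 (0.00039).

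The 4 genes that were lower at P60 differed from one another at P21. Siglech was 411, 632, 574 and 489.6 in cKO cords, 376, 329, 359 and 295 in cHET cords and 356, 358, 342 and 296 in control cords. It was thus higher in every cKO cord, by 0.62 ± 0.13 against cHET (adjusted p = 0.0024) and by 0.63 ± 0.13 against control (adjusted p = 0.0020), the reverse of its direction at P60.

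P2ry12 was already lower at P21, at 957, 1158, 1055 and 922 in cKO cords, 1286, 1421, 1367 and 1403 in cHET cords and 1493, 1633, 1212 and 1519.6 in control cords. The change was -0.43 ± 0.09 against cHET (adjusted p = 0.0037), 1.34-fold lower, and -0.51 ± 0.09 against control (adjusted p = 0.000765). The cKO values did not overlap with those of either genotype.

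Tmem119 was 201, 357, 344 and 407 in cKO cords, 470.5, 359.8, 436 and 405 in cHET cords and 396, 362, 381 and 334 in control cords. One low cord, cKO 1, set much of the difference, the groups overlapped, and the test did not pass (-0.39 ± 0.17 against cHET, adjusted p = 0.125; -0.21 ± 0.17 against control, adjusted p = 0.41). It passed against cHET when cKO 4, the highest cKO cord, was left out (-0.51, adjusted p = 0.045).

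Sall1 was 2644, 2689, 2554 and 2569 in cKO cords, 2859, 2984, 2687 and 2849.6 in cHET cords and 3007, 3230.0, 2990.0 and 3194 in control cords. The cKO values reached the lowest cHET value and stayed below all controls. The change was -0.12 ± 0.05 against cHET (adjusted p = 0.098) and -0.25 ± 0.05 against control (adjusted p = 0.0018).

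The change with age was tested as the P60 change minus the P21 change in 1 fit over all 6 groups. Against cHET 4 of the 9 genes passed, all lower at P60 (3.2% of 16570 tested genes were called, 1.71% as lower). The difference was -1.49 ± 0.30 for Siglech (adjusted p = 0.0053), -1.37 ± 0.26 for Tmem119 (adjusted p = 0.0035), -0.73 ± 0.19 for P2ry12 (adjusted p = 0.0365) and -0.29 ± 0.07 for Sall1 (adjusted p = 0.025). The kit differed between the ages too, so kit and age cannot be told apart here. Against control Siglech (-1.66 ± 0.30), Tmem119 (-1.51 ± 0.26) and P2ry12 (-0.72 ± 0.19) passed, and Sall1 did not (-0.09 ± 0.07, adjusted p = 0.56; 4.48% of tested genes were called, 2.13% as lower).

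The 5 genes that were higher at P60 did not pass this test. That grouping rests on the P60 change, which is itself part of the difference, so the split between these genes and the other 4 is a description. Against cHET the differences of the 5 were 0.48 ± 0.28 for Fcrls (95% interval -0.11 to 1.08), 0.41 ± 0.26 for Gpr34 (-0.13 to 0.95), -0.01 ± 0.22 for P2ry13 (-0.47 to 0.45), -0.05 ± 0.13 for Cx3cr1 (-0.32 to 0.21) and -0.39 ± 0.15 for Csf1r (-0.70 to -0.09, adjusted p = 0.18). The interval of Csf1r did not include 0, but its p did not survive adjustment over all genes.

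The age differences of Siglech and Tmem119 passed in each of the 27 alternatives run. The 4 calls against cHET went down to 2 when P21 cHET 3, P21 cKO 2, P60 cHET 1 or P60 cKO 3 was left out, with P2ry12 and Sall1 the genes lost. Sall1 was also lost without P60 cKO 2, and P2ry12 also without P21 cHET 1, P21 cHET 4, P21 cKO 3, P60 cHET 3 or P60 cKO 1. Against control P2ry12 was lost without P21 cKO 2, P21 control 3, P60 cKO 1, P60 cKO 3, P60 control 1 or P60 control 2.

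**Figure D2:**
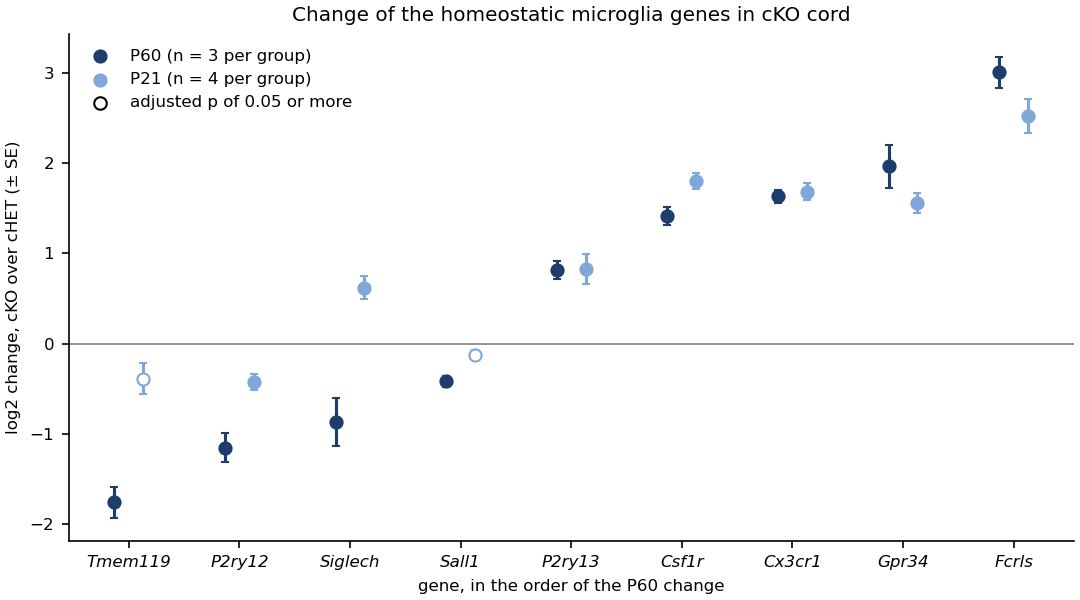
Log2 change of each gene in cKO over cHET cords, with its SE, at P60 (dark) and P21 (light); open symbols have an adjusted p of 0.05 or more. Siglech stands at -0.87 at P60 and 0.62 at P21, while P2ry13 and Cx3cr1 sit at nearly the same height at both ages.

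The cHET cords were set against controls. Tardbp itself was not called in this contrast (0.06 ± 0.06, adjusted p = 0.99 at P60; -0.08 ± 0.06, adjusted p = 0.81 at P21). Limma called 0 of the 9 genes at P60 and 0 at P21 (0.0178% and 0.0111% of tested genes were called). The changes of the 9 genes lay between -0.23 for Gpr34 and 0.08 for Sall1 at P60, and between -0.13 for Sall1 and 0.30 for Fcrls at P21. At an unadjusted p under 0.05 there were 0 of the 9 genes at P60 and 1 at P21, where 5.42% and 7.14% of all tested genes passed, and the authors' deposited tables hold 0 at either age by q (0.0827% of genes at P60 and 0.193% at P21). The gene at P21 was Sall1, whose 4 cHET values lay below all 4 control values (-0.13 ± 0.05, adjusted p = 0.65; the groups of 5.13% of tested genes did not overlap at P21, and of 10.2% at P60, where none of the 9 genes was among them). The widest intervals were those of Siglech at P60 (-0.76 to 0.43) and Gpr34 at P60 (-0.76 to 0.30).

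Each gene was next set against Csf1r of the same library, as a description relative to a receptor of the whole lineage. No test was run on these ratios. Relative to Csf1r, P2ry12 had a mean log2 ratio of -4.26 in cKO and -1.69 in cHET cords at P60, and of -3.83 in cKO and -1.60 in cHET cords at P21. Tmem119 had -6.76 in cKO and -3.58 in cHET cords at P60, and -5.51 in cKO and -3.32 in cHET cords at P21. The cKO libraries lay below the cHET libraries without overlap at both ages for P2ry12, Tmem119, Siglech, Sall1 and P2ry13. Csf1r itself rose, and 89.0% of the other tested genes at P60 and 87.9% at P21 lay below in the same way, so such a position says only that a gene did not rise as much as Csf1r.

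Siglech, whose level rose less than that of Csf1r at P21, had a ratio of -4.80 in cKO and -3.61 in cHET cords there. P2ry13, which also rose less, had -4.47 in cKO and -3.88 in cHET cords at P60. Gpr34 overlapped at both ages. Fcrls was higher relative to Csf1r without overlap at both ages, a position held by 2.09% of the other tested genes at P60 and 0.934% at P21, and Cx3cr1 was higher at P60 (-0.95 in cKO, -1.17 in cHET cords) and lower at P21 (-1.34 in cKO, -1.22 in cHET cords).

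**Figure D3:**
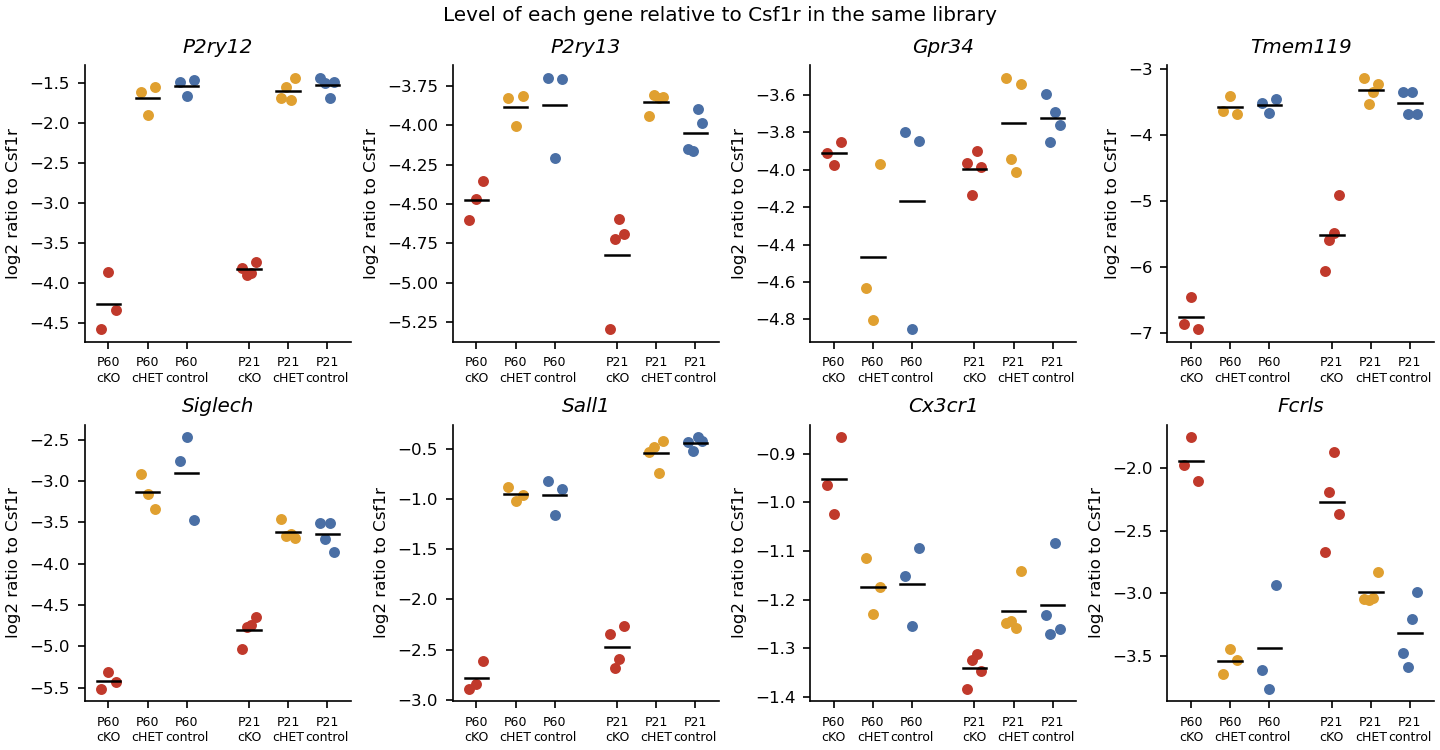
Log2 ratio of 8 of the genes to Csf1r within each library (points), with group means (lines), by age and genotype (n = 3 per group at P60, 4 at P21). For P2ry12 the cKO means are -4.26 at P60 and -3.83 at P21, against -1.69 and -1.60 in cHET cords, and Gpr34 is the gene whose cKO and cHET points overlap at both ages.

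P2ry12 and P2ry13 allow a close comparison, since they are related receptors on the same strand with GENCODE starts 51.989 kb apart. Both lie inside Med12l, a subunit gene of the Mediator complex on the plus strand. The ratio of P2ry12 to P2ry13 within a library was 1.01 to 1.52 in cKO cords, 4.30 to 4.80 in cHET cords and 4.62 to 5.84 in control cords at P60. It was 1.65 to 2.80 in cKO cords, 4.34 to 5.21 in cHET cords and 4.63 to 6.54 in control cords at P21. The cKO range was separate from the others at both ages. That follows from the levels already given, since P2ry12 was lower and P2ry13 higher in every cKO cord, and is no further result.

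Of the other genes of the locus, Igsf10 changed at both ages and Med12l at P60. Med12l itself was at -0.22 ± 0.07 against cHET at P60 (adjusted p = 0.042) and -0.19 ± 0.09 at P21 (adjusted p = 0.15). P2ry14, a UDP-glucose receptor, was not called (0.67 ± 0.30, adjusted p = 0.13 at P60; -0.03 ± 0.18, adjusted p = 0.93 at P21). Gpr171, a G protein-coupled receptor gene, did not exceed 9.34 in any library. Igsf10, an immunoglobulin-superfamily gene that overlaps the end of Med12l, rose by 0.94 ± 0.09 at P60 and by 0.91 ± 0.12 at P21 (adjusted p = 2.7e-05 and 6.1e-05). Med12l lies on the strand opposite to P2ry12 and P2ry13, and whether the quantification used strand is not given in the sources used here. The share of Med12l transcripts in their values was not tested.

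**Figure D4:**
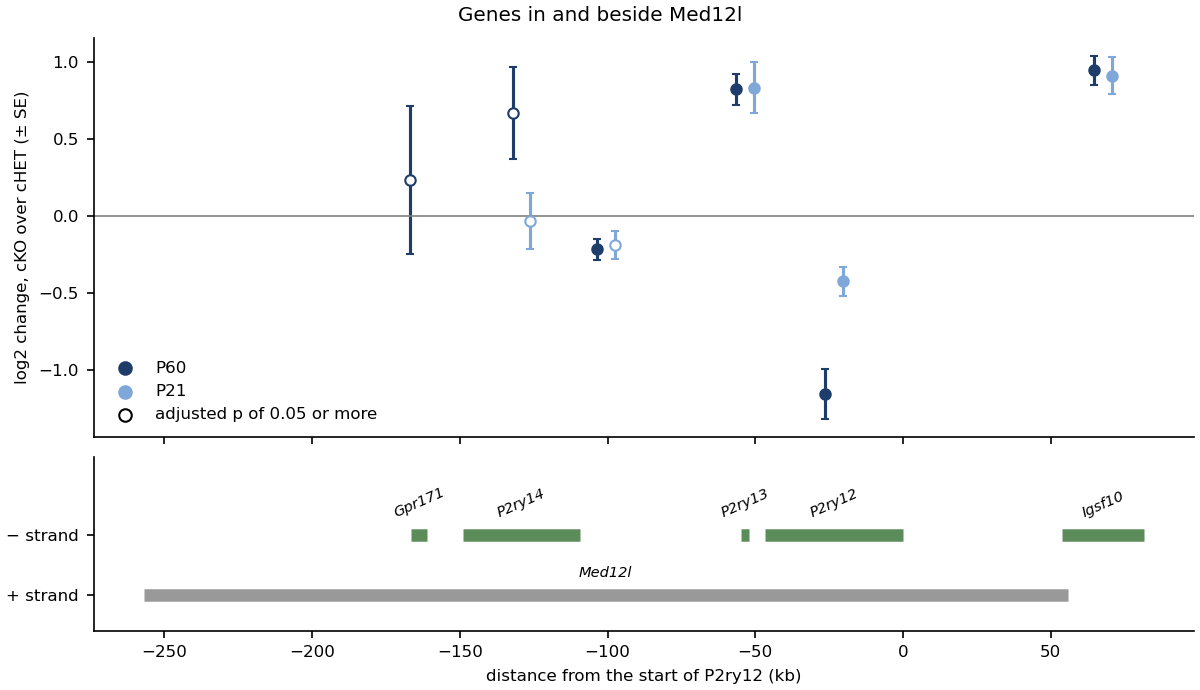
Upper panel, log2 change in cKO over cHET cords (± SE) of 6 genes in and beside Med12l at P60 (dark) and P21 (light), with open symbols for an adjusted p of 0.05 or more; lower panel, these genes drawn to scale by strand, as distance from the start of P2ry12. Gpr171 did not pass the filter at P21 and has no P21 point. P2ry13 stands at 0.82 and 0.83 and its neighbour P2ry12 at -1.15 and -0.43.

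Other genes of microglia were set beside the split of the 9. In cKO against cHET, the contrast used for these and the later lists, 13.4% of all tested genes were higher and 11.5% lower at P60. The shares at P21 were 12.6% and 9.97%. Of 24 genes of microglia and macrophages in general, 23 rose and 0 fell against cHET at both ages (median 2.47 at P60 and 2.35 at P21). The complement genes C1qa (2.91 and 2.81), C1qb (2.78 and 2.67) and C1qc (2.78 and 2.79) and the adaptor Tyrobp (3.29 and 3.18) were among them, and Mef2c, a transcription factor also used by neurons, was the gene not called (0.51, adjusted p = 0.078 at P60; 0.23, adjusted p = 0.65 at P21). The summed level of the list was 29019 to 40127 in cKO and 5903 to 6272 in cHET cords at P60, and 55458 to 77506 in cKO and 10284 to 12761 in cHET cords at P21. Of the 9 genes, only Fcrls exceeded the median of that list at either age. P2ry12, Tmem119 and Sall1 had changes below those of all 24 at both ages, and Siglech at P60. The lowest change in that list was 0.51 at P60 and 0.23 at P21. Both exceed the median change over all tested genes (0.0033 and -0.0076), so this position says only that a gene did not rise with the list.

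Of 23 measured genes that are also listed as homeostatic, 12 rose and 3 fell at P60 and 17 rose and 2 fell at P21 (median 0.70 and 0.72). The counts of genes that fell were near the shares over all tested genes (11.5% lower at P60 and 9.97% at P21). Those that rose included Olfml3, a secreted glycoprotein (1.48 and 1.93), Slco2b1, an organic anion transporter (1.39 and 1.27), and Cd33, a sialic acid-binding receptor (1.54 and 2.02). The genes that fell, named after their values were seen, were the fructose transporter Slc2a5 (-1.06 and -0.70), the crystallin Crybb1 (-1.21 and -0.56) and, at P60, the lysophospholipid acyltransferase Lpcat2 (-0.91 ± 0.10, adjusted p = 5.7e-05; at P21 -0.23 ± 0.08, adjusted p = 0.057). Lpcat2 also passed the test of the age difference (-0.68 ± 0.13, adjusted p = 0.0035). It was the 1 gene of this list that passed as lower, and 1 other passed as higher (3.2% of all tested genes passed).

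Genes of the disease-associated state of microglia rose in 18 of 19 tested cases at P60 and 19 of 20 at P21, with 0 lower (median 2.69 and 3.26). Apoe, which carries lipid, was at 2.87 and 1.72, lipoprotein lipase Lpl at 2.67 and 3.18, the lysosomal protease Ctsd at 2.19 and 2.42 and the tetraspanin Cd63 at 1.58 and 1.32. Genes of dividing cells rose in 7 of 11 tested cases at P60 and 9 of 12 at P21, with 0 lower. Cdk1, the mitotic kinase, was at 1.44 ± 0.40 and 1.28 ± 0.26, and Birc5, needed for chromosome segregation, at 1.0 and 0.59. Ube2c, a mitotic ubiquitin-conjugating enzyme, was at 1.01 and 0.84. The cyclin gene Ccnb2 was at 0.79 (adjusted p = 0.095) and 1.02 (adjusted p = 0.013). Which cells divided cannot be read from whole cord.

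**Figure D5:**
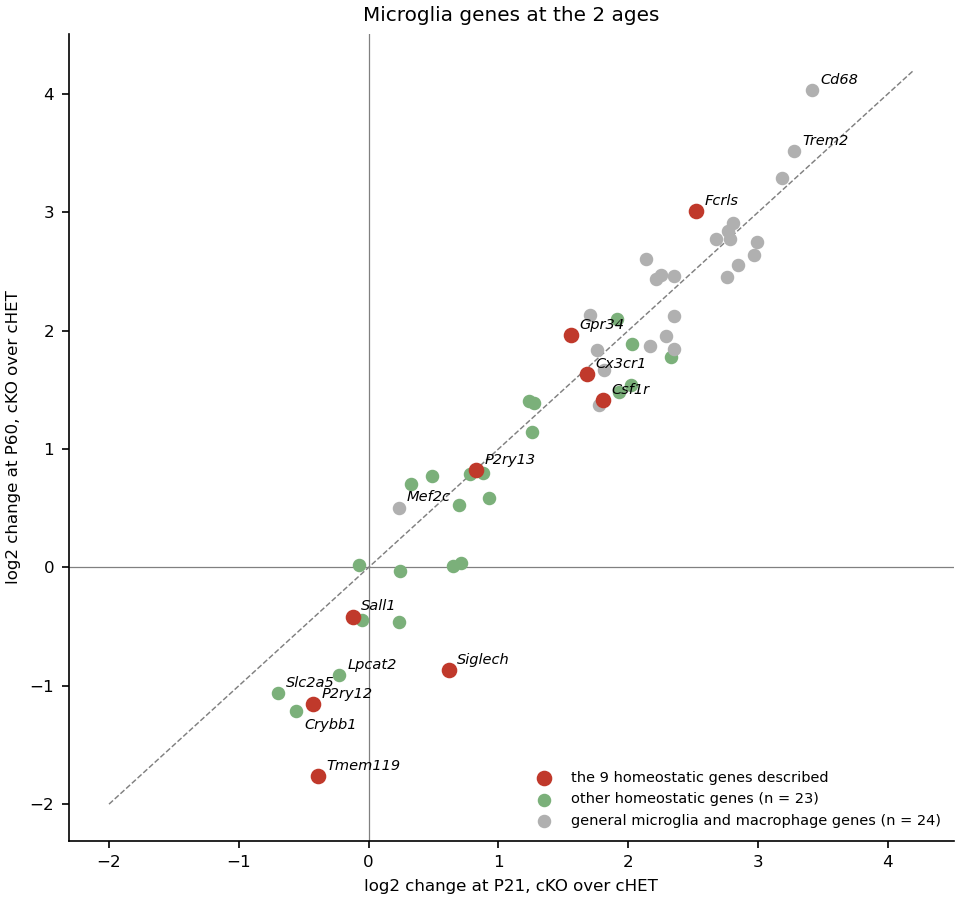
Log2 change in cKO over cHET cords at P60 (vertical) against P21 (horizontal) for the 9 genes (red), 23 other homeostatic genes (green) and 24 general microglia and macrophage genes (grey); the dashed line marks equal change. Tmem119, P2ry12, Slc2a5, Crybb1 and Lpcat2 lie at the lower left, Siglech at the lower right, and the other receptors lie with the grey points or between them and 0.

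The ligands of the receptors were measured in the same cords. Csf1, a growth factor for Csf1r, rose by 0.75 ± 0.09 at P60 (adjusted p = 0.00014) and by 0.67 ± 0.07 at P21 (adjusted p = 1.2e-05). Il34, its other ligand, did not pass (-0.33 ± 0.16, adjusted p = 0.16 at P60; -0.20 ± 0.11, adjusted p = 0.22 at P21). Cx3cl1, the neuronal ligand of Cx3cr1, was not called at P60 (-0.11 ± 0.09, adjusted p = 0.39), where it was 353 ± 8.29 in cKO and 382 ± 16.5 in cHET cords. At P21 it fell by 0.36 ± 0.06 (adjusted p = 0.00079), to 1039 ± 51.7 in cKO against 1335 ± 87.6 in cHET cords (SD).

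Of 13 genes of the TGF-beta axis, on which the resting programme depends, 6 rose and 3 fell at P60 and 7 rose and 0 fell at P21. Tgfb1 rose by 1.85 ± 0.19 and 1.66 ± 0.12, its receptors Tgfbr1 by 1.51 and 1.04 and Tgfbr2 by 1.41 and 1.49, and Ski, a repressor of the pathway, by 0.45 and 0.36. Named after their values were seen, Smad7, an inhibitory Smad that the pathway itself induces, was at -1.0 ± 0.15 at P60 (adjusted p = 0.00060) and -0.21 ± 0.12 at P21 (adjusted p = 0.24), and its age difference passed (-0.80 ± 0.20, adjusted p = 0.026). The other genes that fell at P60 were the ligand Tgfb3 (-0.72 ± 0.13, adjusted p = 0.0020), which rose at P21 (0.47 ± 0.16, adjusted p = 0.045), and the integrin subunit Itgav (-0.34, adjusted p = 0.033).

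Of the other purinergic genes 5 of 10 tested rose and 2 fell at P60, and 2 of 12 rose and 2 fell at P21. The P21 counts were near the shares over all tested genes (12.6% higher and 9.97% lower). At P60 those shares were 13.4% and 11.5%. P2ry6, the UDP receptor linked to phagocytosis, rose by 2.33 ± 0.26 and 2.10 ± 0.20, and Entpd2, which breaks down extracellular ATP, by 1.01 and 0.59. The nucleotide receptor P2ry1 (-0.65 and -0.38) and the adenosine receptor Adora1 (-0.41 and -0.25) fell at both ages.

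Markers of other cells that carry macrophage genes were measured beside these results. Of border macrophage genes 5 of 11 tested rose at P60 and 5 of 12 at P21, with 0 lower, and the summed level was 1262 to 1429 in cKO and 404 to 504 in cHET cords at P60, and 1987 to 2969 in cKO and 658 to 827 in cHET cords at P21. The sialic acid receptor Siglec1 (4.84 and 4.98), Ms4a7 (4.05 and 2.92), the scavenger receptor Colec12 (1.67 and 1.99) and the folate receptor Folr2 (2.50 and 0.87) rose at both ages. Clec12a rose at P60 (1.55) and Stab1 at P21 (1.21). Among the genes not called at either age were Mrc1 (0.12 and 0.14), Cd163 (0.24 and 0.18) and Lyve1 (0.03 and 0.07). Of 19 measured blood leukocyte genes only 9 passed the filter at P60 and 13 at P21, so the list says little about blood cells. Of those tested 1 rose at each age, the integrin Itgal (2.81 and 2.20), where 13.4% and 12.6% of all tested genes were higher. The neutrophil marker Ly6g was at 0 in all P60 cKO and cHET cords and did not exceed 0.66 in P21 cKO cords. The summed level of the blood leukocyte genes was 175 to 257 in cKO and 81.3 to 122 in cHET cords at P60. At P21 it was 353 to 554 in cKO and 206 to 248 in cHET cords. Itgal made up much of that sum, with up to 191 in cKO and 49.3 in cHET cords at P60, and the median change of the list was -0.14 at P60 and -0.09 at P21. The cord's own cells moved as well: 2 of 4 neuronal markers fell at P60 and 3 of 4 at P21 (Syt1, -0.51 and -0.42), 4 of 4 oligodendrocyte markers fell at P60 and 3 of 4 at P21, and 2 of 4 astrocyte markers rose at P60 and 3 of 4 at P21 (Gfap, 1.51 and 1.36). The part of such cells in the changes of the 9 genes was not tested.

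Genes were ranked by how closely they followed P2ry12, Tmem119 or Csf1r over the 21 libraries, as the root mean square difference of log2 values centred on the cHET mean of each age. Among 16568 genes Csf1r was followed most closely by Itgam (0.104), a macrophage integrin, Cx3cr1 (0.114), A2m (0.120), Dock8 (0.155) and Arhgap9 (0.157). P2ry12 was followed by Rasgrp3 (0.160), Gbx1 (0.167), Otof (0.179), Tmcc3 (0.179) and Ebf3 (0.184). Tmem119 was followed by Qdpr (0.197), Nsdhl (0.226), Slc45a3 (0.228), Efnb3 (0.245) and Gstm7 (0.254). Of the other 8 genes, Sall1 was the nearest to P2ry12 (0.351), at rank 690. P2ry12 was the nearest to Tmem119 (0.355), at rank 55. Both were farther away than the 5 named for each. The likeness is a description over libraries that share genotype and age groups.

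Male and female cKO cords were compared at P21, an examination added after the data were seen. The 2 male cKO cords lay above the 2 female cKO cords for 7 of the 9 genes, all but Tmem119 and Sall1, and for 23.7% of all tested genes. The summed level of the general microglia and macrophage genes was 76941 and 77506 in the male and 58311 and 55458 in the female cKO cords. The difference in the change between the sexes (male minus female, cKO against cHET) was positive for all 9 genes, 0.02 to 0.81. Its median over all tested genes was 0.031, and the 9 genes were read in the same cords, so their signs are not independent. Limma called 0 of the 9 (0.00556% of tested genes were called). At an unadjusted p under 0.05 Fcrls, Gpr34, Cx3cr1 and P2ry13 passed, as did 6.53% of all tested genes. Each sex had 2 cords per genotype.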

How the data were processed

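RNA of 21 whole spinal cords was sequenced. The deposited per-library signal values are normalised scaled reads per base, 1 per gene, scaled by the authors within each age. The submitters' processing notes name kallisto 0.43.0, sleuth 0.28.1 and GRCm38, without their roles. The authors' comparison tables give p-values and q-values, and effects deposited on a natural log scale, which were divided by the natural log of 2. Raw counts and depth were not used here, so no counting interval is given.

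Groups follow the submitters' labels. Levels were tested with limma 3.58.1 (trend; R 4.3.3) on log2(value + 0.5), which understates changes of low genes. Genes needed a value of at least 5 in at least 4 (P21) or 3 (P60) libraries, which all 9 genes passed. Each age had 1 fit over its 3 genotypes, and age differences came from 1 fit over 6 groups. p-values were adjusted over all tested genes by Benjamini-Hochberg, with a threshold of 0.05, and SEs are limma's moderated ones. Summaries used Python 3.11.15, pandas 2.3.3 and numpy 2.4.6. The fit was tested on simulated data. Positions come from GENCODE on GRCm38, and promoters from RefSeq on GRCm38.p6.

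The 9 genes and all gene lists were chosen with earlier results of these data known. From each other list up to 4 called genes with the smallest p for cKO against cHET at P21 were named, plus the receptor ligands, overlapping genes and the nearest 5 genes by likeness. Alternatives varied the pseudocount, filter, normalisation, moderation and samples. Replicate numbers follow accession order and only name samples, and p-values measure the spread between these cords. Some genes of these lists are not reported here by name.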

Additional observations from a re-analysis of the deposited data

Results flagged for a closer look

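The change of 4 genes in cKO cords differed between the ages by a direct test of the difference (P60 minus P21, limma-trend over all 6 groups, 16570 genes tested). Against cHET the difference was -1.49 for Siglech, -1.37 for Tmem119, -0.73 for P2ry12 and -0.29 for Sall1. Against control, which shares the cKO libraries, it was -1.66 for Siglech, -1.51 for Tmem119 and -0.72 for P2ry12. Siglech was the gene of the 9 whose change had opposite signs, lower at P60 and higher at P21 in cKO cords, and both changes passed their own test. Library kit and age cannot be told apart in this test. No library of the P21 groups stood apart from its group by Dixon's criterion for any of the 9 genes (27 groups of 4 examined).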

How the results depend on the processing

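Some alternatives, such as no filter or a library of the third genotype left out, cannot alter the log2 change between the groups compared. Of the 33 called changes between genotypes, 662 of 672 alternatives kept direction and call, 10 lost the call and 0 reversed. All 10 concerned Siglech at P60. Against cHET it was also lost with no filter on low values (adjusted p = 0.0654), with robust moderation (0.0622) and, in an alternative chosen after seeing the data, without P60 cHET 3 and control 1, which had the highest mitochondrial shares of their groups (0.0641; against control 0.0563). For the 7 called age differences 167 of 189 alternatives kept the call and 22 lost it, all for P2ry12 or Sall1. The 4 age differences against cHET became 2 to 4 with 1 library left out.

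Among changes that were not called, signs turned when 1 library was left out. The range was -0.33 to 0.0051 for Tmem119 in cKO against control at P21. In cHET against control at P21 it was -0.057 to 0.071 for Siglech, -0.13 to 0.011 for Gpr34 and -0.062 to 0.024 for Csf1r. In cHET against control at P60 it was -0.16 to 0.020 for P2ry12, -0.0030 to 0.12 for P2ry13, -0.055 to 0.10 for Tmem119, -0.53 to 0.16 for Siglech, -0.0038 to 0.18 for Csf1r and -0.15 to 0.15 for Fcrls. For the age difference against cHET it was -0.20 to 0.11 for P2ry13 and -0.13 to 0.037 for Cx3cr1, and against control -0.032 to 0.14 for Cx3cr1, -0.0095 to 0.38 for Gpr34 and -0.015 to 0.33 for Fcrls. Without both P60 cHET 3 and control 1 the age difference of P2ry13 against cHET was 0.038. The cause was not tested. No paired analysis was possible because the labels give no replicate numbers shared between groups. Depth is unknown, so its limit on low levels such as those of Tmem119 and Gpr34 cannot be stated.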
